A study of Mus musculus with 576 samples.

Results

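The 9 genes described here take up glucose and break it down: the glucose transporters Slc2a1, Slc2a2 and Slc2a3, the hexokinases Hk1 and Hk2, the glycolytic enzymes Pfkp and Aldoa, the lactate dehydrogenase subunit Ldha and the pyruvate dehydrogenase kinase Pdk1. They were chosen by symbol, and all 9 were found among the 36658 genes of the count tables. Full-length single-cell RNA sequencing (Smart-seq2) was done on sorted GFP+ cells of the mouse dorsal pancreas at embryonic day 12.5, on a C57BL/6J background. There were 3 lines, each with its own 2 plates of 96 wells. In Nkx2.5-Cre;mTmG and Nkx3.2-Cre;mTmG embryos, a Cre knocked into Nkx2.5 or Nkx3.2 switches the R26 mTmG reporter to GFP, so that the cells and their descendants stay marked. In Prox1-GFP embryos, a bacterial artificial chromosome transgene places EGFP under Prox1 control and no Cre is present. The labels name no embryo or litter for a cell, and the study's methods say that embryos of both sexes were used without sexing. Each line is therefore a single sample, its cells do not count as replicates, and no difference below carries a test. Line and plate cannot be told apart. The Cre lines are called Nkx2.5-Cre and Nkx3.2-Cre from here on.

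The study's filters on genes, counts and mitochondrial share passed 549 cells, with 90 and 83 on plates 6A and 6B (Nkx2.5-Cre), 95 and 96 on 7A and 7B (Nkx3.2-Cre) and 93 and 92 on 8A and 8B (Prox1-GFP). The median cell held 1056670, 896115 and 808006 counts in the same order of lines, and 5750, 7235 and 6993 detected genes. Clusters fell into 4 states by their markers, with the 9 genes and their pathway left out of the clustering. The Prox1-GFP line gave 18 endocrine cells, 87 other epithelial cells and 80 mesenchymal cells. Mesenchymal cells of the Cre lines numbered 87 and 81 on plates 6A and 6B and 92 and 76 on plates 7A and 7B. Mesothelial cells numbered 5 in Nkx2.5-Cre and 23 in Nkx3.2-Cre, and neither Cre line gave an epithelial cell. All 14 endocrine markers were present in the endocrine cells, led by glucagon (Gcg), and all 12 epithelial markers in the other epithelial cells. Blood, immune and neural crest markers summed to at most 23.5 CPM (counts scaled to a common total) in any state, and endothelial markers to 26.9 to 60.6 CPM. In the mesenchymal cells of the Prox1-GFP line, 2 cells held 100 CPM or more of endocrine markers, and results that use these cells were also computed without them. Of the 87 other epithelial cells, 8 held as much, and no alternative was set up to leave those out.

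Glucose enters a cell through facilitative transporters of the Slc2a (GLUT) family and is trapped by hexokinases as glucose 6-phosphate. Glycolysis turns it into pyruvate, which either becomes lactate through Ldha or enters mitochondria unless Pdk kinases hold pyruvate dehydrogenase inactive. In the adult pancreas, β cells are known for a low-affinity transporter (Slc2a2) and very little Ldha and Slc16a1, the lactate and pyruvate transporter. Several of these genes are also known targets of hypoxia-inducible factors, which bind sites with the letters ACGTG or GCGTG.

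Promoter sequence of 4 members is shown first, because Ldha and Pdk1 shared the direction of their calls in both comparisons of epithelial states, Slc2a1 had the widest expression of the transporters, and Slc2a2 had the most restricted. The windows are the 250 bases before the first start site that RefSeq (GRCm38.p6) gives, and capitals mark ACGTG or GCGTG on either strand.
Ldha, chr7:46845554-46845803 (+ strand): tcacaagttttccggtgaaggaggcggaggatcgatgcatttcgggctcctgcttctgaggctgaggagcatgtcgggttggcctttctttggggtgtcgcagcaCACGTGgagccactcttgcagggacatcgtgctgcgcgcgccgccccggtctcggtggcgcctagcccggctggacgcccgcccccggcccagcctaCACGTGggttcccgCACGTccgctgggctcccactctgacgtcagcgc
Slc2a1, chr4:119108495-119108744 (+ strand): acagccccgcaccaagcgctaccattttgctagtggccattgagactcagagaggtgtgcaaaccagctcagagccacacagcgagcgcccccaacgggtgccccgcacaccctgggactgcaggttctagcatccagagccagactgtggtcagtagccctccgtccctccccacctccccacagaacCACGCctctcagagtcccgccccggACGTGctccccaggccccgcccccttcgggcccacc
Pdk1, chr2:71872974-71873223 (+ strand): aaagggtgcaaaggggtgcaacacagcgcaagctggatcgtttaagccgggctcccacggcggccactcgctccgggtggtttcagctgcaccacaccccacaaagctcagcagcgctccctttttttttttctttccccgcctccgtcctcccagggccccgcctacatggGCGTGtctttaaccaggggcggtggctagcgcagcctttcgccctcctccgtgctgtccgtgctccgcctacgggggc
Slc2a2, chr3:28697653-28697902 (+ strand): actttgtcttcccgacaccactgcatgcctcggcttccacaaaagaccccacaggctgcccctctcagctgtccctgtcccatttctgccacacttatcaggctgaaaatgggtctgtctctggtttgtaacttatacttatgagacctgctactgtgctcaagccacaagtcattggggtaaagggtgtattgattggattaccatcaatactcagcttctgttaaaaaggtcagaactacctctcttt
The Ldha window held 5 matches to ACGTG, 4 of them as both strands of 2 CACGTG palindromes. That of Slc2a1 held 1 match to each of the letters, that of Pdk1 held 1 match to GCGTG, and the Slc2a2 window held neither. At a second start, Ldha held no ACGTG and 1 GCGTG, and Pdk1 held neither. Members not shown held matches too: Hk2 had 2 to ACGTG, and Pfkp and an Hk1 window had 3 each to GCGTG. Of the 13 member windows, 5 held ACGTG and 5 held GCGTG. Of the 32851 windows of RefSeq promoters, searched over the same 250 bases, 16.6% held ACGTG, 28.2% held GCGTG and 6.02% held CACGTG. These matches are letters in a window and were not tested as sites.

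Levels were CPM of the counts summed over the cells of a state, with the 2 plates given beside them. Intervals are exact 95% Poisson intervals for levels and exact 95% binomial (Clopper-Pearson) intervals for shares of cells, and both cover counting error only. Counts are reads without molecular identifiers. A gene was called higher or lower in a comparison when its CPM differed at least 2-fold, in the same direction on every plate with at least 5 cells on each side, among genes with a mean of 5 CPM or more over both sides.

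The transporters divided by state. Slc2a2, the low-affinity transporter, stood at 120.9 CPM (118.4 to 123.4) in other epithelial cells, with 133.1 CPM on plate 8A and 107.3 CPM on plate 8B. It was detected in 68 of 87 of these cells (78.2%, 68.02 to 86.3%), and the median cell held 106.7 CPM. In the 18 endocrine cells no Slc2a2 count was found, and the exact interval of the level reached up to 0.241 CPM. Mesenchymal cells held 0.0494 CPM in the Prox1-GFP line, 0.0237 CPM in the Nkx2.5-Cre line and 0.140 CPM in the Nkx3.2-Cre line. Some mesenchymal cells still held a count (3.75%, 2.38% and 7.14% in that order), which fell to 1.25%, 0 and 0.595% when each cell was thinned to 100000 counts. The other epithelial cells kept 73.6% after thinning, against at most 1.25% in the mesenchyme.

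Slc2a3, a high-affinity transporter best known from neurons, had the reverse pattern. Its level was 95.4 CPM (93.99 to 96.9) in the mesenchyme of Nkx2.5-Cre, 59.3 CPM (58.04 to 60.5) in that of Nkx3.2-Cre and 61.7 CPM (59.7 to 63.7) in that of Prox1-GFP. Both Nkx2.5-Cre plates (79.7 and 110.1 CPM) lay above the plates of the other lines (48.2 to 76.4 CPM), which overlapped with each other. Other epithelial cells held 0.979 CPM and endocrine cells 0.701 CPM. Between 47.6% and 53% of mesenchymal cells had a count, against 23% of other epithelial cells, in which the highest cell reached 27.6 CPM.

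Slc2a1, the broadly expressed basal transporter, was present in every state. The 23 mesothelial cells of Nkx3.2-Cre had 244 CPM (237 to 251), and Slc2a1 was detected in all of them. Mesenchyme held 132.3 CPM in Nkx3.2-Cre, 100.4 CPM in Prox1-GFP and 75.2 CPM in Nkx2.5-Cre, other epithelium 93.7 CPM and endocrine cells 50 CPM. Endocrine plates read 23.6 and 72.1 CPM, so the endocrine level overlapped that of the Nkx2.5-Cre mesenchyme, with 55 and 94 CPM. The plates of Prox1-GFP mesenchyme (89.2 and 116.5 CPM) and other epithelium (86.2 and 102.1 CPM) overlapped as well. The 5 mesothelial cells of Nkx2.5-Cre read 362 CPM, which fell to 177.2 CPM without the highest cell.

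**Figure D1:**
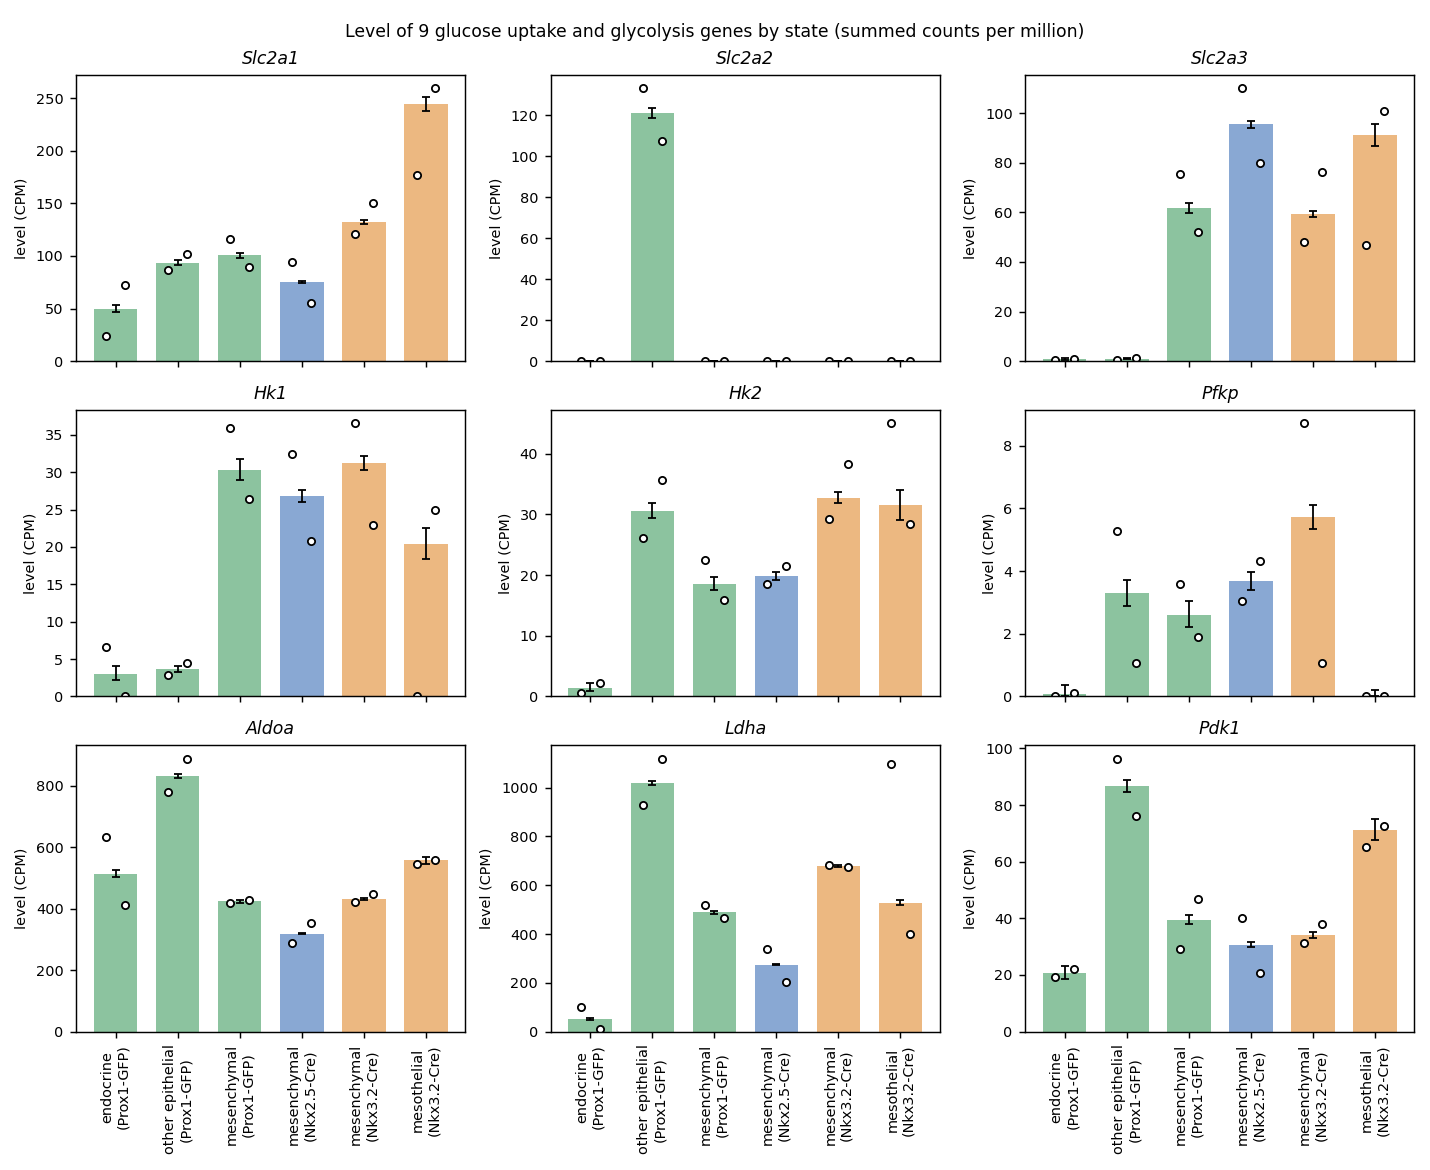
Level of each gene (CPM of summed counts, linear axis from 0) in 6 groups of 1 state and 1 line. Bars give the level, black error bars the 95% Poisson interval and open circles the 2 plates. Slc2a2 has a bar in other epithelial cells alone, Slc2a3 and Hk1 stand in mesenchymal and mesothelial cells, and Ldha is lowest in endocrine cells.

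Per base of transcript, with the longest coding transcript in GENCODE M21 as the length, Slc2a1 made 56.7% and Slc2a2 42.8% of the summed level of the 3 transporters in other epithelial cells. In mesenchyme, Slc2a3 made 51.1% in Nkx2.5-Cre, 26.9% in Nkx3.2-Cre and 33.6% in Prox1-GFP. These shares depend on the length used: with the median coding transcript, the Slc2a2 share was 13.2%, and the Slc2a3 shares were 62.4%, 36.9% and 44.5%.

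Cells were also counted by the transporters they held. With 10 CPM as the cut, 42 of 87 other epithelial cells held both Slc2a1 and Slc2a2, 18 held Slc2a1 without Slc2a2 and 21 the reverse. Of the mesenchymal cells of Nkx2.5-Cre, 22 held both Slc2a1 and Slc2a3, 37 the first only and 41 the second only. In the Nkx3.2-Cre mesenchyme the same counts were 51, 70 and 15. The product of the separate shares gives 43.4, 22.1 and 47.5 cells with both, close to the 42, 22 and 51 found. Mesenchymal cells with neither numbered 68 and 32, and single-cell libraries miss transcripts, so a cell without a count cannot be taken as a cell without expression.

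**Figure D2:**
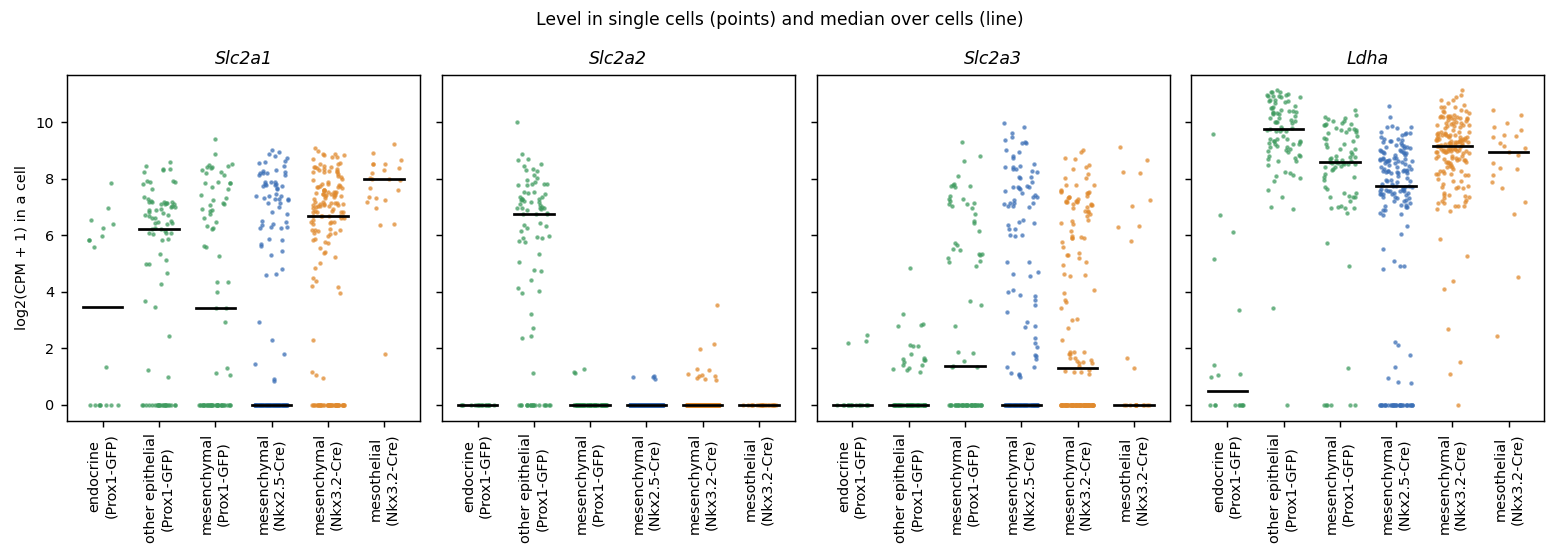
Level of Slc2a1, Slc2a2, Slc2a3 and Ldha in single cells on a log2(CPM + 1) axis, by state and line. Points are cells and lines are medians over cells. For Slc2a2 only the other epithelial cells have a median above 0, and 9 of 18 endocrine cells lie at 0 for Ldha.

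The hexokinases differed between epithelium and mesenchyme as well. Hk1, the common hexokinase, stood at 26.8, 31.2 and 30.3 CPM in the mesenchyme of Nkx2.5-Cre, Nkx3.2-Cre and Prox1-GFP, and plates ran from 20.8 to 36.5 CPM. It stood at 3.64 CPM in other epithelial cells, where 4 of 87 cells carried all of its counts, and at 3.01 CPM in endocrine cells. Without the highest cell these became 1.55 CPM and 0.0684 CPM. Hk2, the inducible hexokinase, had 32.8 CPM in Nkx3.2-Cre mesenchyme, 31.5 CPM in Nkx3.2-Cre mesothelium and 30.6 CPM in other epithelium. It had 19.9 CPM in Nkx2.5-Cre mesenchyme and 18.6 CPM in Prox1-GFP mesenchyme. The plates of the first 3 groups ran from 26 to 45 CPM and did not separate them. Endocrine cells held 1.44 CPM of Hk2, and the 5 mesothelial cells of Nkx2.5-Cre had no count of it.

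Hkdc1, a hexokinase-like protein, was found in the epithelium. It stood at 77.5 CPM in other epithelial cells (55 of 87 cells) and had no count in any mesenchymal cell. Endocrine cells held 1.895 CPM of it.

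Pfkp, the platelet form of phosphofructokinase, was low and confined to few cells. It was found in 38 of 549 cells, its level was 0 to 5.73 CPM in all 7 groups, and no count was seen in 28 mesothelial cells. Per base of the longest coding transcript, Pfkl, the liver form, made 91.6% of the phosphofructokinase level in other epithelium and 72.5% to 74.4% in mesenchyme. By the median coding transcript these shares were 94.2% and 80.9% to 81.8%. The Pfkl share was lower in mesothelium. It was 43.9% by the longest and 56.9% by the median transcript in Nkx3.2-Cre, and 21.2% and 31.2% in the 5 cells of Nkx2.5-Cre. Aldoa, the main aldolase, was detected in 86.3% to 100% of the cells of each state other than the 5 mesothelial cells of Nkx2.5-Cre. It had 832 CPM (825 to 838) in other epithelial cells, against 319 to 557 CPM in the states with more than 5 cells. A second identifier with the symbol Aldoa held 672 counts in 39 cells against 227793 for the main gene, and is left out of these levels.

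Ldha, which forms lactate from pyruvate, was high outside the endocrine cells. Other epithelial cells held 1018 CPM (1011 to 1025), with 927 and 1119 CPM on the plates and 86 of 87 cells positive. Mesenchyme held 680 CPM in Nkx3.2-Cre, 488 CPM in Prox1-GFP and 274 CPM in Nkx2.5-Cre, and no plate of 1 line reached into the range of another. Endocrine cells held 50.1 CPM (46.6 to 53.8), at 99.5 CPM on plate 8A and 8.85 CPM on plate 8B. Of the 18 endocrine cells, 9 had no Ldha count and 1 an estimated count under 1, the median cell held 0.495 CPM, and 1 cell with 776 CPM supplied most of the counts. Without that cell the endocrine level was 12.03 CPM. It was a cell with 1791 CPM of Fev, a transcription factor of the endocrine lineage, and no Gcg count.

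Pdk1, which slows the entry of pyruvate into mitochondria, had 86.8 CPM (84.7 to 88.9) in other epithelial cells and 71.4 CPM (67.6 to 75.3) in Nkx3.2-Cre mesothelial cells. Mesenchyme of the 3 lines held 30.6 to 39.6 CPM, with plates from 20.6 to 46.9 CPM that overlapped between lines, and endocrine cells held 20.7 CPM. It was found in 74.7% of other epithelial cells (62.1% after thinning) and in 31.5% to 39.3% of mesenchymal cells.

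**Figure D3:**
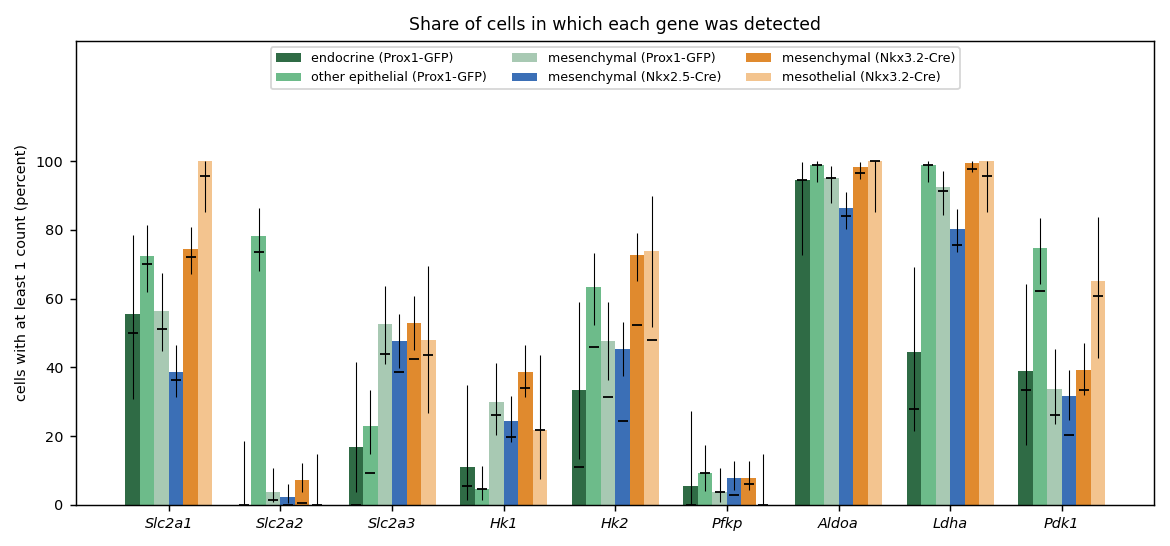
Percent of cells with at least 1 count of each gene, by state and line. Vertical lines are exact 95% binomial intervals and short horizontal marks the percent after thinning each cell to 100000 counts. Slc2a2 reaches 78.2% in other epithelial cells and at most 7.14% elsewhere among these groups, and Ldha reaches 44.4% in endocrine cells against 80.4% or more in the others.

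Endocrine cells, whose leading hormone was glucagon, were compared with the other epithelial cells of the same line, which shared their plates and sort. Of the 9 members, 4 were called lower and none higher. Slc2a2 was 617-fold lower when its endocrine count of 0 was set to the floor of 3 counts over the 18 cells. The counting interval of its ratio reached up to 0.00199. Hk2 was 21.3-fold lower, Ldha 20.3-fold and Pdk1 4.19-fold. Per base of the median coding transcript, Pdk1 made 4.59% of the summed level of the Pdk kinase genes in endocrine cells. In other epithelial cells it made 30.1%. The sum itself was not lower in endocrine cells, at 87.1 against 55.6 CPM per kilobase. The sizes for Hk2 and Ldha rest on few cells: without the highest endocrine cell of each, their endocrine levels were 0.491 and 12.03 CPM, and the log2 ratios on plates 8A and 8B were -5.50 and -4.05 for Hk2 and -3.22 and -6.98 for Ldha. Slc2a1 and Aldoa were lower on both plates but not called, at 1.87-fold and 1.62-fold, and Slc2a3, Hk1 and Pfkp were under 5 CPM on average. Of the 98 genes on the 10 pathway lists, 73 entered, 9 were called higher and 16 lower, or 12.3% and 21.9%. Of all 11592 genes that entered, 17% were called higher and 23.3% lower, shares near those of the lists. None of the 18 endocrine cells reached 100 CPM of Top2a, against 37 of 87 other epithelial cells. Among other epithelial cells under 10 CPM of Top2a, Ldha was 867 CPM, Hk2 22.7 CPM and Pdk1 103.1 CPM. The part of Top2a in the endocrine values was not tested.

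Within the lists, lactate genes were among those called lower, and a fructose transporter and a glucose 6-phosphatase subunit among those called higher. In the lactate list 3 of 5 genes that entered were called lower: Ldha, Ldhb at 0.850 against 59.4 CPM, and the lactate transporter Slc16a1, which had no count in 18 endocrine cells against 48.9 CPM. Of 12 glycolytic enzymes that entered, 3 were called lower, namely Gapdh (419 against 1012 CPM), Eno1 (855 against 2829 CPM) and Pkm (637 against 1736 CPM). That share, 25%, was near the 23.3% called lower of all genes that entered. Gapdh and Eno1 have processed copies in the genome, and reads shared with them may have been divided. Higher in endocrine cells were the fructose transporter Slc2a5 (116.5 against 1.56 CPM, in 15 of 18 cells) and the islet glucose 6-phosphatase subunit G6pc2 (75.8 CPM, with no count in other epithelial cells). G6pc2 was uneven, at 2.59 CPM on plate 8A and 136.9 CPM on plate 8B. Hkdc1 was 40.9-fold lower, and Pdp1, a phosphatase that reactivates pyruvate dehydrogenase, 24.2-fold lower. Of the hypoxia list, 12 genes entered, of which 4 were called higher (Ankrd37, P4ha1, Egln1 and Higd1a) and Car9 lower. These shares were 33.3% and 8.33%, beside 17% and 23.3% of all genes that entered. The 9 genes of the citrate cycle had no call in either direction.

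Other epithelial cells of the Prox1-GFP line were next set against its mesenchymal cells, which shared plates and sort with them. Slc2a2, Ldha and Pdk1 were called higher, and Slc2a3 and Hk1 lower. The Slc2a2 ratio was 2446, with a counting interval from 838 to 11880, because it rests on 3 counts in mesenchyme. Slc2a3 was 63.04-fold and Hk1 8.33-fold lower. Ldha (2.09-fold, log2 0.83 and 1.26 on the plates) and Pdk1 (2.19-fold, log2 1.73 and 0.70) lay close to the threshold, and each call was lost when 1 plate was left out: Ldha without plate 8B and Pdk1 without plate 8A. The Ldha ratio also fell just under the threshold when each cell was given its state without clustering. Aldoa, at 1.96-fold, lay just under it. Without the 2 mesenchymal cells that held endocrine markers, the log2 ratios of Ldha and Pdk1 were 1.03 and 1.10.

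Of the pathway lists, 73 genes entered and 9 were called in each direction (12.3%), near the 13.6% called higher and 13.2% called lower of all 11517 genes. Besides the members, Hkdc1, Gpi1 (269.6 against 131.99 CPM) and Taldo1 (299.8 against 147.8 CPM) were higher in epithelium. Ldhb, the other lactate dehydrogenase subunit, was 6.41-fold lower, and Slc2a4, the insulin-responsive transporter, had no count in epithelium against 20.4 CPM in mesenchyme. Per base of the longest coding transcript, Ldha made 92.5% of the level of Ldha and Ldhb in other epithelial cells, 47.95% in Prox1-GFP mesenchyme, 65.04% in Nkx3.2-Cre mesenchyme and 33.7% in Nkx2.5-Cre mesenchyme. By the median coding transcript the same shares were 94.7%, 56.99%, 72.8% and 42.3%.

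Mesothelial cells were compared with mesenchymal cells in the Nkx3.2-Cre line, where 20 of the 23 lay on plate 7B, the only plate with 5 cells or more. Pdk1 alone of the members was called, 2.09-fold higher. It rested at the threshold and fell to a log2 ratio of 0.93 on plate 7B and of 0.99 with edgeR's TMM scaling. Slc2a1 was 1.85 times higher without a call. In the lists 72 genes entered, and 9 were called higher and 9 lower (12.5% each), beside 12.3% and 12.1% of 11253 genes. Pdk2 (110.9 against 46.3 CPM) and Pdk3 (129.7 against 64.03 CPM) were called with Pdk1, as were the lactate transporters Slc16a1 (202 against 76.4 CPM) and Slc16a3 (97.5 against 26.7 CPM). The aldolase Aldoc had 50.5 against 0.524 CPM, in 10 of 23 cells. The phosphatases Pdp1 and Pdp2, which act against the Pdk kinases, were lower, at 17.5 against 45.8 CPM and 28.5 against 101.5 CPM. Pfkl was lower as well, at 82.5 against 251 CPM.

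The next question was whether the genes followed the cell cycle, read from Top2a, a topoisomerase made from S phase to mitosis. Cells with 100 CPM or more of Top2a were set against cells under 10 CPM of the same state and line. Median detected genes were higher in the Top2a-high cells of all 4 groups, with 7975 against 7272.5 in other epithelium and 6160 against 5515, 7529 against 7106 and 6822 against 6128 in the mesenchyme of Nkx2.5-Cre, Nkx3.2-Cre and Prox1-GFP. The part of this in the results was not tested.

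Among other epithelial cells, 37 were Top2a-high and 46 Top2a-low, and the 2 main transporters moved in opposite directions. Slc2a1 was 130.5 CPM (126.6 to 134.5) in Top2a-high and 63.7 CPM (61.2 to 66.3) in Top2a-low cells, a ratio of 2.05, and was detected in 91.9% and 56.5% of them. Slc2a2 was 67.3 CPM (64.5 to 70.2) and 170.6 CPM (166.5 to 174.8), 2.53-fold lower in Top2a-high cells, and the median cell held 53.2 and 137.8 CPM. Both plates gave the same direction, with log2 ratios of 1.33 and 0.73 for Slc2a1 and of -1.55 and -1.09 for Slc2a2. The Slc2a2 call held under all 10 alternatives computed for its ratio, and the Slc2a1 ratio fell under 2-fold in 4 of 10, among them Mki67 in place of Top2a (log2 0.76) and the loss of plate 8A (log2 0.73). Hk2 (42.2 against 22.7 CPM), Ldha (1160 against 867 CPM) and Pdk1 (71.8 against 103.1 CPM) were not called. Across all genes 5.73% were called higher and 9.64% lower, and of 70 list genes 3 (4.29%) and 8 (11.4%). Pdk2 (12.3 against 51.8 CPM) and Mpc1, a subunit of the mitochondrial pyruvate carrier (30.8 against 71.98 CPM), were lower with Slc2a2.

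In mesenchyme, Top2a-high cells had few calls among the members, and no member was called in more than 1 line. Hk2 was called lower in the Nkx2.5-Cre line (8.33 against 24.4 CPM, with 43 Top2a-high cells). Its detection went the other way, with a count in 53.5% of Top2a-high and 43.3% of Top2a-low cells. Pfkp was called higher in the Nkx3.2-Cre line (10.7 against 3.001 CPM, with 49 Top2a-high cells), on 7 and 4 cells with a count. Pdk1 was called lower in the Prox1-GFP line (21.8 against 47.7 CPM, 27 Top2a-high against 41 Top2a-low cells). The Pfkp ratio fell to a log2 of 0.56 with Mki67 in place of Top2a, and the Pdk1 ratio to -0.86 with cells weighed alike. Pdk1 lay under 1 in the ratio of summed levels in the other 2 lines, at 0.781 and 0.645, without a call, and on plate 6B its direction was opposite. Of the list genes, 2, 2 and 3 were called higher and 5 in each line lower, which is 2.94%, 2.86% and 4.23% higher and 7.35%, 7.14% and 7.04% lower. Across all genes, 6.51%, 4.18% and 9.47% were called higher and 9.0%, 5.2% and 10.2% lower, in the order Nkx2.5-Cre, Nkx3.2-Cre, Prox1-GFP. The list gene called in the same direction in all 3 lines was Pfkfb1, at 32.8, 27.1 and 21.4 CPM in Top2a-high against 7.60, 8.75 and 3.61 CPM in Top2a-low cells.

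**Figure D4:**
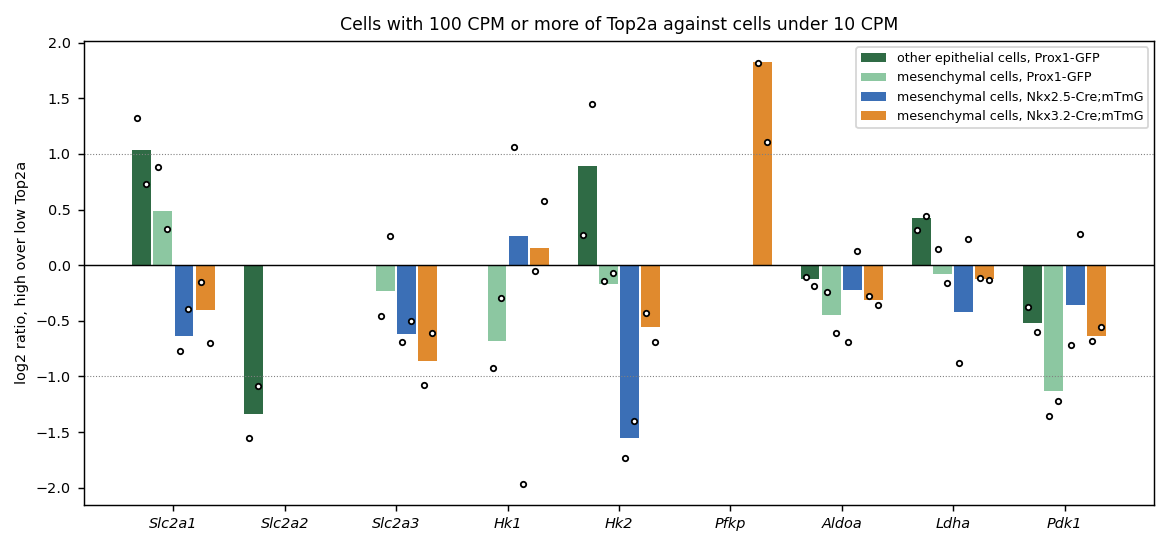
Log2 ratio of each gene between cells with 100 CPM or more and cells under 10 CPM of Top2a, in other epithelial cells and in the mesenchyme of the 3 lines. Bars are ratios of summed levels, open circles the 2 plates and dotted lines the 2-fold threshold, and genes under 5 CPM on average have no bar. Slc2a1 is up and Slc2a2 down in other epithelium, and Slc2a1 and Hk2 point down in the mesenchyme of both Cre lines.

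The mesenchyme of the 2 Cre lines was compared in Top2a-low cells, 63 and 57 on the Nkx2.5-Cre plates and 54 and 51 on the Nkx3.2-Cre plates. Ldha was called lower in Nkx2.5-Cre cells (287 against 661 CPM, 2.30-fold), with 378 and 188.7 CPM on plates 6A and 6B and 663 and 659 CPM on plates 7A and 7B. Without plate 6B its log2 ratio was -0.81 and the call was lost, although the direction was the same for all 4 pairs of plates. Slc2a1, Hk2 and Aldoa were lower without a call on all 4 pairs (83.7 against 142.1, 24.4 against 38.5 and 327 against 444 CPM), and Slc2a3 was higher without a call on all 4 (106.01 against 71.3 CPM). Of 70 list genes 11 (15.7%) were called lower and 1 (1.43%) higher, beside 6.99% and 4.8% of all 10965 genes. The median log2 ratio over the list genes was -0.30, and over all genes that entered it was 0.00208.

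Several of the lower genes encode glycolytic enzymes. Of the 12 glycolytic enzymes that entered, 4 were called lower: Tpi1 (293 against 593 CPM), Gapdh (356 against 744 CPM), Eno2 and Eno3. By a looser reading, added after these values were seen, 11 of the 12 were lower on all 4 pairs of plates at any size, and Pfkm was the exception. Of all genes that entered, 25.6% were lower and 24.6% higher by that reading. Of the 9 citrate cycle genes, 4 were lower and 3 higher by it. The lactate exporter Slc16a3 was 13.4-fold lower, at 2.09 against 27.997 CPM, and the pentose phosphate enzyme Tkt 2.14-fold lower. Pdp2 was the list gene called higher, at 250.5 against 101.01 CPM. Nkx2.5-Cre cells of this comparison had more counts (median 1057960 against 876769) and fewer detected genes (5515 against 7106), and the part of this in the results was not tested.

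**Figure D5:**
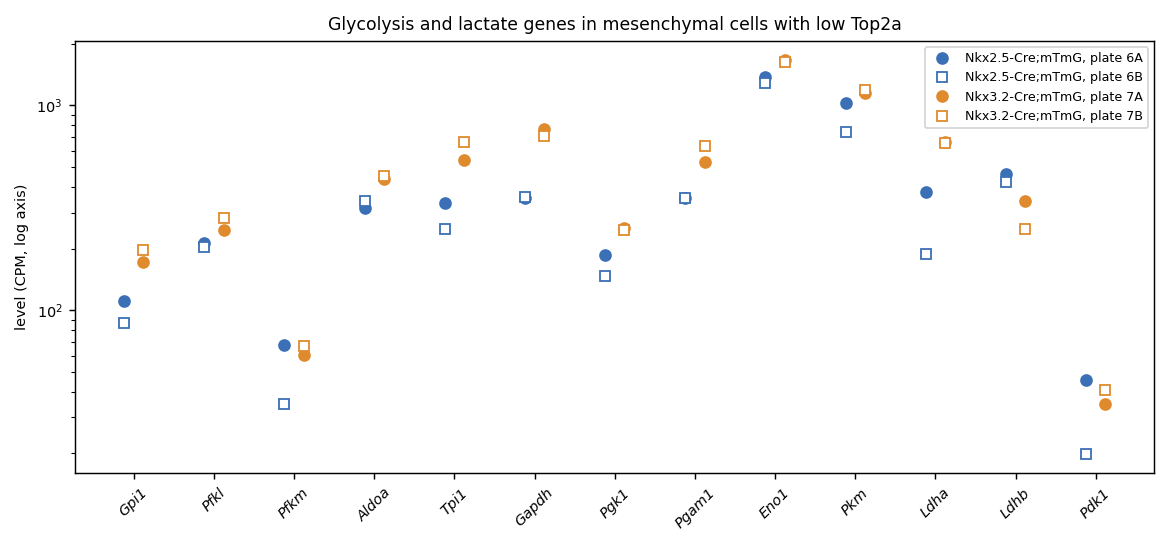
Level (CPM of summed counts, log axis) of glycolysis and lactate genes in mesenchymal cells with under 10 CPM of Top2a, for the 2 plates of each Cre line. Filled circles and open squares are the plates. Both Nkx2.5-Cre plates lie under both Nkx3.2-Cre plates for Gapdh, Tpi1, Gpi1, Pgk1 and Ldha, and above them for Ldhb.

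Among the 7 mesenchymal clusters, which were built without these genes, Ldha ran from 254 CPM in clusters 4 and 8 to 760 CPM in cluster 3, and Aldoa from 268 CPM in cluster 4 to 529 CPM in cluster 3. Cluster 3, led by Kazald1, Slc40a1 and Htra3, also had the highest Hk2 (39.2 CPM) and held 42 of its 65 cells from Nkx3.2-Cre. Cluster 4, led by Gap43, Lpar1 and Smoc2, had the highest Slc2a3 (113.4 CPM) and the lowest Hk2 (9.33 CPM, or 4.38 CPM without its highest cell), with 54 of its 62 cells from Nkx2.5-Cre. Cluster 8, with Igf1 and Zfhx4 among its leading genes, had the highest Slc2a1 (143.6 CPM) and Hk1 (61.6 CPM), over 25 cells. Without the highest cell for each gene these were 122.8 and 44.5 CPM. For Slc2a1, cluster 7 had 125.5 CPM, and its median cell held 113.3 CPM against 31.9 CPM in cluster 8. Cluster and line are partly the same division of these cells.

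Across single cells most pairs of members were weakly related. The highest Spearman correlation among the 36 pairs was that of Aldoa and Ldha in 3 groups: 0.50 in 87 other epithelial cells, 0.47 in the mesenchymal cells of Nkx3.2-Cre and 0.34 in 80 of Prox1-GFP. In the mesenchymal cells of Nkx2.5-Cre no pair went above 0.28. In the small groups other pairs led. In 18 endocrine cells Slc2a3 and Pfkp gave 0.61, but only 1 of these cells had a Pfkp count and 3 a Slc2a3 count. In 23 mesothelial cells of Nkx3.2-Cre, Hk2 and Ldha gave 0.48. Aldoa and Ldha gave -0.15 in the endocrine and 0.091 in the mesothelial cells. In other epithelial cells Slc2a1 also followed Ldha (0.48), Top2a (0.46) and the number of detected genes (0.45). Cells of a group share plates and differ in depth, so these values are descriptions.

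Over the 11 groups of 1 state on 1 plate, the genes most like Slc2a2 were the cholecystokinin receptor Cckar and the acinar transcription factor gene Rbpjl (Pearson r of log2 levels 0.999 and 0.998). Those most like Slc2a3 were Pmp22 and Antxr1 (0.992 and 0.9898), and those most like Hk1 were Nnat and Ptprs (0.988 and 0.972). Ldha was followed by Snrpe and Fbl (0.992 and 0.980), Hk2 by Plin3 and Mrto4 (0.985 and 0.978), and Aldoa by Tln2 and Gsr (0.971 and 0.939). Slc2a1 was followed by Gm38431 and Cdip1 (0.948 and 0.946), Pdk1 by Frem2 and Olfr1388 (0.934 and 0.934) and Pfkp, at 2.65 CPM, by Zfp444 and Ppid (0.908 and 0.887). Since 8435 genes were searched over 11 points, high values of this kind are to be read as a list of similar profiles.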

How the data were processed

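The authors deposited estimated counts per gene for 3 lines of Smart-seq2 libraries, 1 cell each, made per the labels and methods with Trim Galore 0.6.5 and kallisto on GRCm38 and summed to genes. They are not length-scaled, and 36.1% of the values above 0 are not whole. From these expected counts, 549 cells were kept by the filters the methods state: a minimum of 1000 genes and of 100000 counts, and a mitochondrial share of 30% or less. Depth per passing cell ran from 224814 to 1512740 counts. Cells were clustered in Seurat 5.3.0 with resolution 1.9, leaving out the members and pathway lists. Only the difference between the S and G2/M scores was regressed out, and mesenchymal cluster 2 was still led by Top2a. The 1 cluster that held markers of 2 states was clustered again at 0.5. Clusters were named from markers. No doublet caller was run, and no columns of other samples were present. Symbols came from GENCODE M21 and matched 35866 of 36658 identifiers, and identifiers without one held 0.605% of counts.

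Levels are summed counts scaled to a common total (CPM), ratios use a floor of 3 counts for a side at 0, and a call needs a 2-fold ratio of summed levels with the same direction on every plate of 5 cells or more a side. TMM factors came from edgeR 4.0.16. The scripts were tested on simulated data. The members and lists were chosen with earlier results of these data known. Of the list genes, those named were called with at least 20 CPM on the higher side, up to 8 in each direction, and the 9 members are always named. Genes named outside this rule, chosen after their values were seen, are Car9, Eno2, Eno3 and Fev, Eno1, Gapdh and Pkm in the endocrine comparison, Pfkm, Pgk1, Gpi1 and Ldhb in that of the Cre lines, and Pfkl and Hkdc1 where levels are given by state. Some items are not reported here. Alternatives covered scaling, filters, fold, each plate left out, naming of states and the Top2a ranges.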

Additional observations from a re-analysis of the deposited data

Results flagged for a closer look

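For some genes the change with Top2a pointed one way on both plates of 1 group and the other way on both plates of another. These differences between groups were not tested. For Slc2a1, the log2 ratio of Top2a-high to Top2a-low cells was 0.48 in Prox1-GFP mesenchyme and 1.03 in other epithelial cells, against -0.64 in Nkx2.5-Cre;mTmG and -0.40 in Nkx3.2-Cre;mTmG mesenchyme. The gaps were 1.12 and 0.89 for Prox1-GFP mesenchyme, and 1.67 and 1.44 for other epithelial cells. For Hk2, the log2 ratio was 0.89 in other epithelial cells against -1.55, -0.56 and -0.17 in the mesenchyme of Nkx2.5-Cre;mTmG, Nkx3.2-Cre;mTmG and Prox1-GFP, gaps of 2.45, 1.45 and 1.06. For Ldha, it was 0.42 in other epithelial cells against -0.12 in Nkx3.2-Cre;mTmG mesenchyme, a gap of 0.55.

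Of the 27 cells left out by the filters, 3 held more than 3 counts of Aldoa and 2 held more than 3 counts of Ldha.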

How the results depend on the processing

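No paired analysis was possible because the labels name no animal and pair no plates between lines, and no result comes from a test. Within a line, the calls already use the ratio on each plate. Each value below is a count of pathway genes called, with the reported count in parentheses, and the cause of each shift was not tested. With a 1.5-fold threshold, the endocrine comparison gave 26 lower (16), epithelium against mesenchyme 20 higher (9), mesothelium 17 higher (9), and the 2 Cre lines 6 higher (1) and 20 lower (11). For Top2a that threshold gave 4 higher (2) and 13 lower (5) in Nkx2.5-Cre mesenchyme, 12 lower (5) in Nkx3.2-Cre, 5 higher (3) and 11 lower (5) in Prox1-GFP mesenchyme and 5 higher (3) in other epithelium. Without the filter on low values, epithelium against mesenchyme gave 14 higher (9) and 16 lower (9), mesothelium 19 lower (9) and the Cre lines 5 higher (1). For Top2a this gave 13 lower (5) in Nkx2.5-Cre, 5 higher (2) and 11 lower (5) in Nkx3.2-Cre, 8 higher (3) and 9 lower (5) in Prox1-GFP mesenchyme and 5 higher (3) in other epithelium. With cells weighed alike, Top2a gave 3 lower (5) in Nkx3.2-Cre and 5 higher (3) and 1 lower (5) in Prox1-GFP mesenchyme. A single division at 50 CPM of Top2a gave 3 lower (5) in Nkx3.2-Cre and 1 higher (3) in Prox1-GFP mesenchyme. In other epithelium, states given without clustering left 1 higher (3), and Mki67 in place of Top2a gave 5 higher (3).

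With each plate left out in turn, the endocrine comparison gave 12 to 15 higher (9, with 15 without plate 8A), and the Cre lines 1 to 3 higher (1, with 3 without plate 6A or 7A). Top2a gave 5 to 5 higher (2) and 10 to 11 lower (5) in Nkx2.5-Cre, 3 to 6 lower (5, with 3 without plate 7A) in Nkx3.2-Cre, 6 to 13 higher (3) and 7 to 11 lower (5, with 11 without plate 8B) in Prox1-GFP mesenchyme, and 4 to 8 higher (3, with 8 without plate 8A) in other epithelium. Leaving out a plate also leaves fewer plates that must have the same direction. Without plate 7B the mesothelial comparison has 3 cells and no value. Leaving out the Prox1-GFP mesenchymal cells with endocrine markers was chosen after seeing the data and kept 9 and 9 calls in epithelium against mesenchyme, and 2 higher and 4 lower for Top2a. No log2 ratio of a member changed its called direction under the alternatives run. Cell numbers and reads per cell limit the genes under 5 CPM, and 18 endocrine cells limit the shares there.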
